A study of Mus musculus with 8 samples.

Results

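In endothelial cells of the mouse heart, 9 of the 16791 genes in the deposited table were examined: AA467197, Tmem252, Fam167b, Il4i1, Clca3a1, Tmem176a, Tmem176b, Clu and Slco2a1. They were picked by name, as little-studied genes that an earlier look at these same data had shown to be raised after myocardial infarction (MI). The difference between healthy and MI hearts is therefore given below as a description, with no test. How the genes were spread over endothelial classes of the same mice was tested. Tmem252, Tmem176a and Tmem176b had been named by the study as markers of its Ackr1 cluster of these same cells, so their differences between classes are also descriptions, and counts are given with and without them where they were called.

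The mice carried Pdgfb-iCreERT2 and R26R-Brainbow2.1, so that a dose of 150 mg/kg tamoxifen marked Pdgfb-lineage endothelial cells with a Confetti fluorophore. Both groups received tamoxifen, were adults of 8 to 10 weeks and of either sex, and were killed 21 days after it. In the MI group (4 mice) the left anterior descending coronary artery had been tied for good 14 days after tamoxifen, that is 7 days before harvest. The Healthy group (4 mice) had no surgery, so the groups also differ in anaesthesia, opening of the chest and buprenorphine. Cells with Confetti and CD31 but without podoplanin were taken from the ventricles by sorting, and 1 10X library was made per mouse. The marked cells are thus those in which the Pdgfb promoter was active when tamoxifen was given and their progeny.

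Libraries differed in depth, with 6764977 to 8793655 UMIs (unique molecular identifiers, each 1 captured transcript) per healthy mouse and 15865234 to 27244947 per MI mouse. Cells were therefore thinned to 1000 UMIs wherever shares of cells were compared, which left out 1648 cells, all from healthy mice. Marker UMIs placed 27330 of 31028 cells in the endothelial gate, where the summed level of 12 endothelial genes was 28386 to 33564 CPM (UMIs of the gene scaled to the same library total in every mouse) in healthy mice and 22523 to 26804 in MI mice. In the library labelled Healthy 228, 2030 cells (55.3%) were copies of cells in Healthy 239, and 301 cells (10.9%) of Healthy 227 were copies of cells in Healthy 228, so the healthy libraries are not fully independent. Summed over 16 haematopoietic genes, the endothelial cells held 36.9 to 177 CPM in healthy mice and 322 to 616 in MI mice, where none of the 16 was at 0. Fibroblast markers stood at 52.0 to 96.3 against 108 to 157, and pericyte, platelet and lymphatic markers overlapped between groups. The part of these cells in the differences between groups was not tested.

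The 9 genes have varied roles. AA467197 encodes a small mitochondrial protein related to Ndufa4, a subunit of respiratory complex IV, and its transcript carries the microRNA Mir147. Il4i1 is a secreted oxidase of aromatic amino acids, whose products can activate the aryl hydrocarbon receptor. Slco2a1 is the prostaglandin transporter, which brings prostaglandins into cells for breakdown. Clu (clusterin) is a secreted chaperone that also restrains the terminal complement complex. Clca3a1 belongs to the chloride channel accessory family and is known from lymphatic endothelium. Tmem176a and Tmem176b are neighbouring genes for membrane proteins related to the Ms4a family and are best known from dendritic cells and macrophages. Tmem252 and Fam167b encode proteins whose functions are little described.

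In GENCODE vM21 (GRCm38, the mm10 assembly that the files use) all 9 are protein-coding. AA467197 lies at chr2:122636986-122641191 (plus strand), Tmem252 at chr19:24674008-24682233 (plus), Fam167b at chr4:129576815-129578549 (minus) and Clca3a1 at chr3:144729677-144760977 (minus). Il4i1 lies at chr7:44816387-44840809 (plus), Clu at chr14:65968483-65981547 (plus) and Slco2a1 at chr9:102988712-103096002 (plus). Tmem176a (chr6:48840919-48847071, plus) and Tmem176b (chr6:48833818-48841496, minus) point away from each other and overlap by 578 bases. Il4i1 overlaps Nup62 over 14426 bases on the same strand, so its low counts are uncertain wherever reads could belong to either gene. Clca3a1 has a close relative, Clca3a2, which held 158 UMIs in all endothelial cells, and reads shared by both could be split.

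RefSeq promoter windows (GRCm38.p6, from 250 bases before to 50 after a start site) were found for 8 of the 9 genes. The stretches below come from the 3 genes that were lowest in healthy hearts, AA467197, Tmem252 and Fam167b, and from the shared start region of the Tmem176 pair. Each runs 5′ to 3′ on the strand of its gene (the plus strand for the pair), the first 3 overlap no annotated exon, all 30 bases of the last are exonic, and capitals mark a match to a searched motif. The coordinates are chr2:122637755-122637849, chr19:24673858-24674007, chr4:129578581-129578730 and chr6:48841387-48841416.
AA467197: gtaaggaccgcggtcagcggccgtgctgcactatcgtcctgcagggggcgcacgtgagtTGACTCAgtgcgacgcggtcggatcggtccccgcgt
Tmem252: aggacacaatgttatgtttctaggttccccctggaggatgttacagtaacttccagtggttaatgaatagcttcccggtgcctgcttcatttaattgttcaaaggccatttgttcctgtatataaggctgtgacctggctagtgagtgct
Fam167b: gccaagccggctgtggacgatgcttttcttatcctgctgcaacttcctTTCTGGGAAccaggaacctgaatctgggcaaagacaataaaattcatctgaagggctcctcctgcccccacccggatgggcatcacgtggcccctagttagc
Tmem176 pair: gctgcctgctGGAAAACCCCtaaaggggcc

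The stretch of AA467197 lies inside the gene as GENCODE annotates it, before a RefSeq start site at chr2:122637887. Its capitals match the AP-1 motif (TGANTCA), 73 bases before that start site, and 7.93% of all 27025 promoter windows hold such a match on either strand. Those in Fam167b match the STAT motif (TTCNNNGAA), 102 bases before the start site, which 8.47% of windows hold. The stretch of the Tmem176 pair lies inside both genes, in the part where they overlap and between a RefSeq start site of each. Its capitals match the NF-kB motif on the minus strand, 86 bases before that Tmem176a start, and 4.71% of windows hold one. Between the nearest pair of RefSeq start sites of the 2 genes that face away from each other lie 108 bases. The 8 motifs searched, on both strands, also included the CCAAT box (CCAAT), the TATA box (TATAAA), the GC box (GGGCGG), an ETS motif (CCGGAAGT) and a KLF motif (GGGTGTGG), and the stretch shown for Tmem252 matched none of them. These are letter matches, not binding sites.

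In healthy hearts AA467197, Tmem252 and Fam167b had the lowest mean levels of the 9 genes. AA467197 stood at 3.26, 3.21, 4.32 and 2.16 CPM in the healthy mice 227, 228, 239 and 240, against 77.4, 54.2, 63.8 and 38.1 in the MI mice 244, 250, 255 and 256. Tmem252 stood at 3.75, 3.21, 3.24 and 0.944 against 69.3, 38.7, 106.5 and 13.5. Fam167b stood at 7.34, 6.42, 7.56 and 7.96 against 117, 106, 144 and 77.3. For all 3 genes the lowest MI mouse lay above the highest healthy mouse. The ratio of the group means was 18.0 for AA467197, 20.5 for Tmem252 and 15.2 for Fam167b. Tmem252 was the most uneven of the 9 within the MI group, with its highest mouse 7.88 times its lowest, against 1.87 times for Fam167b.

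Slco2a1 was as low as Fam167b in healthy hearts, while Clu and the Tmem176 pair stood higher there. Slco2a1 stood at 6.52, 8.5, 7.83 and 6.88 CPM in healthy mice and at 33.3, 32.8, 72.5 and 35.2 in MI mice. Clu stood at 45.2, 67.8, 120 and 54.9 against 246, 175, 387 and 167. Tmem176a stood at 30.8, 34.8, 38.2 and 26.7 against 143, 93.6, 204 and 72.9. The groups of these genes did not overlap, and mouse 255 was highest in each. Tmem176b stood at 73.7, 89.5, 93.6 and 62.7 against 255, 183, 327 and 170. Its groups did not overlap either. The ratios of the means were 5.84 for Slco2a1, 3.39 for Clu, 3.93 for Tmem176a and 2.93 for Tmem176b.

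The label of induction did not hold for Il4i1 and Clca3a1, whose groups overlapped. Il4i1 stood at 4.40, 8.34, 11.1 and 8.63 CPM in healthy mice and at 18.0, 14.1, 11.03 and 8.60 in MI mice. Clca3a1 stood at 9.46, 18.3, 8.5 and 17.8 against 27.1, 13.4, 58.9 and 15.8, and without mouse 255 the log2 ratio of its means was 0.47 in place of 1.09. For 7 of the 9 genes the MI mice lay wholly above the healthy mice, where 23.4% of the 12295 genes tested did so. An edgeR fit called 37.2% of those genes either way and 18.8% higher. Since this contrast chose the 9 genes, nothing is read from those counts. Without the copied cells the number was again 7. Without cells that held any haematopoietic UMI at full depth it was also 7. That choice left 9589 of 11239 healthy and 3296 of 16091 MI endothelial cells. Median full depth was 2079 UMIs in healthy and 4142 in MI endothelial cells. A deeper cell is more likely to hold such a UMI, so depth and haematopoietic transcripts are not told apart by this choice. The ratio of the means was lower for all 9 genes in the cells that were left. It was 12.0 for AA467197, 13.4 for Tmem252, 9.89 for Fam167b and 2.56 for Tmem176a, each smaller by more than 1.5 times, and 1.49 to 4.12 for the other 5.

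**Figure D1:**
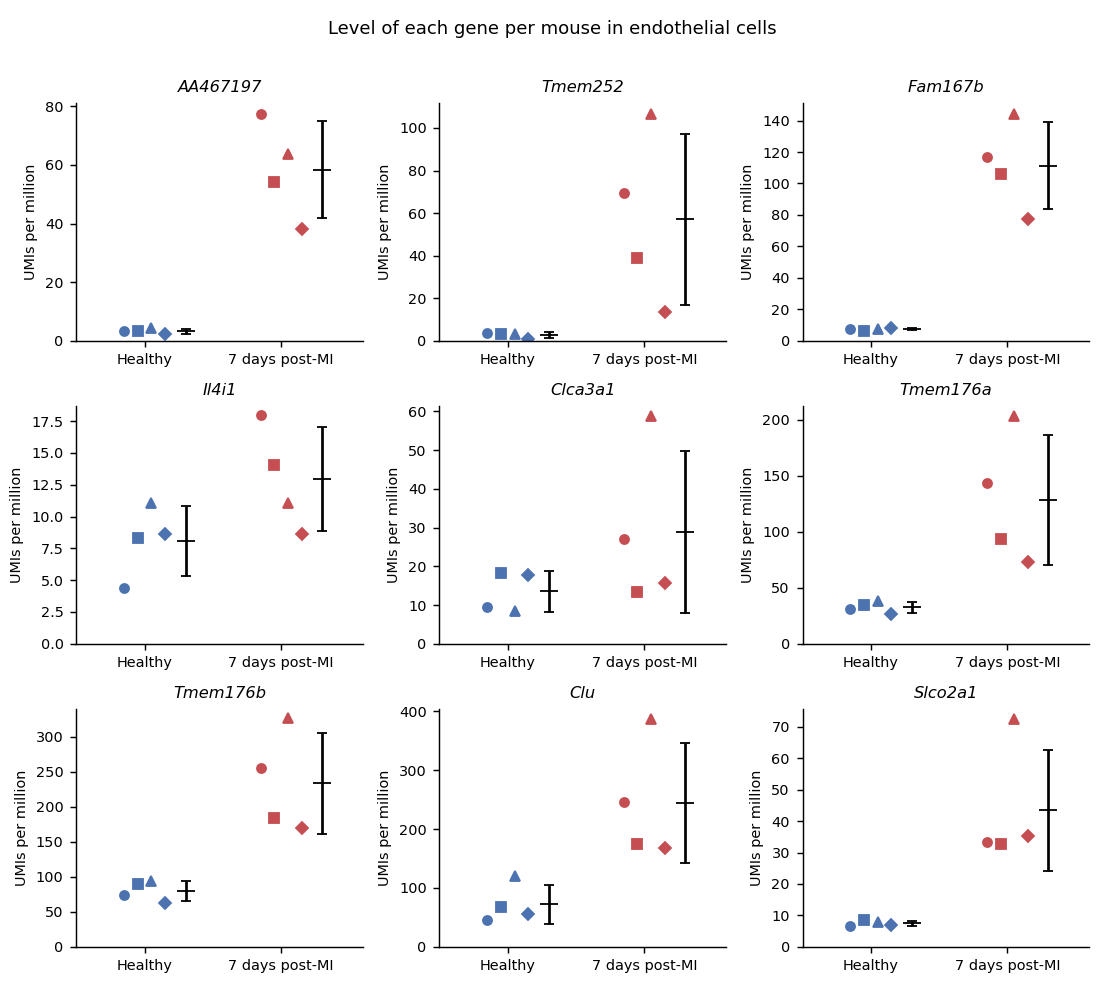
Levels of the 9 genes in endothelial cells, in CPM, for 4 healthy and 4 MI mice. Each point is a mouse, and the bar beside the points is the mean with its SD. For 7 genes every MI mouse sits above every healthy mouse, while Il4i1 and Clca3a1 overlap.

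At equal depth the shares of cells with a UMI overlapped between groups for Il4i1 (0.426% to 0.843% against 0.472% to 1.26%) and Clca3a1 (0.809% to 1.54% against 1.17% to 4.48%). In healthy mice 0.0980% to 0.481% of endothelial cells held an AA467197 UMI at 1000 UMIs per cell, against 2.18% to 4.59% in MI mice. Cells with a Clu UMI made up 3.14% to 7.07% of healthy and 9.87% to 20.6% of MI endothelial cells. At levels this low, a share of cells with a UMI counts captured transcripts and not every cell that expresses the gene.

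The next comparison asked which endothelial cells of the infarcted heart carried the genes. Plvap encodes the protein of the diaphragms of fenestrae and caveolae, and Ackr1 is a chemokine receptor of venules. Endothelial cells were classed by UMIs at equal depth. At least 2 Plvap UMIs and no Ackr1 UMI made a Plvap-high cell, any Ackr1 UMI an Ackr1-positive cell, and 2 or more detected marker genes an arterial, venous, sprouting or capillary cell. The order was Ackr1-positive, Plvap-high, arterial, venous, sprouting and then capillary. Plvap-high cells could thus also pass the arterial, venous or sprouting gate, while capillary cells by definition did not. The part of this in the differences from capillary cells was not tested. The 4 MI mice held 106 to 457 Plvap-high cells each, against 2 to 6 in a healthy mouse, so Plvap-high cells were compared within the MI mice. Since these cells came almost only from MI mice and the 9 genes were picked as raised there, the choice of genes favours a higher level in them. The tests below therefore describe single genes, and nothing particular to the 9 is read from their counts or medians.

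Of the 9 genes 8 were higher in Plvap-high than in capillary cells of the same mice, at an adjusted p under 0.05. Of the 9885 genes tested 13.4% were called either way, 6.34% higher and 7.08% lower. Without the 3 genes that the study chose as cluster markers, 5 of 6 were higher. Clu had the largest difference, at 597 ± 255 against 79.5 ± 23.8 CPM (SD, n = 4), a log2 fold change of 2.94 with a standard error (SE) of 0.11 (edgeR quasi-likelihood test with mouse as a block, Benjamini-Hochberg adjusted p = 1.0e-162). With 4 mice the fit had 3 residual degrees of freedom, so this p rests largely on variance estimates shared across genes. It does not measure the spread of Clu between mice. Other edgeR p-values below also rest on few mice and shared variance. Tmem252 stood at 228, 144, 199 and 37.7 CPM in the Plvap-high cells of mice 244, 250, 255 and 256 and at 35.6, 21.5, 42.5 and 5.77 in their capillary cells, a log2 fold change of 2.52 (SE 0.17). Slco2a1 stood at 79.7, 170.1, 133 and 169.8 against 21.4, 20.01, 35.4 and 15.1, with a log2 fold change of 2.42 (SE 0.19). Both genes were higher in the Plvap-high cells of each of the 4 mice.

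Tmem176a, Fam167b, Clca3a1 and Tmem176b followed in that order. Tmem176a differed by 2.28 (SE 0.12), Fam167b by 2.01 (SE 0.13), Clca3a1 by 1.86 (SE 0.24) and Tmem176b by 1.83 (SE 0.10) on the log2 scale. Fam167b was the most even across mice, at 290, 299, 352 and 292 CPM in Plvap-high cells and 69.8, 81.2, 95.1 and 51.0 in capillary cells. AA467197 had the smallest difference of the 8, at 1.17 (SE 0.19, edgeR adjusted p = 6.4e-08). Il4i1 was not called, with a log2 fold change of -1.11 (SE 0.59, edgeR adjusted p = 0.24) on 6 UMIs in all Plvap-high cells, but was called lower with cells thinned to 2000 UMIs (-1.88, edgeR adjusted p = 3.7e-06). The median log2 fold change was 2.01 over the 9 genes and 1.94 over the 6 that were not cluster markers, beside -0.03 over all genes tested. Without cells that held a haematopoietic UMI, 20 to 27 Plvap-high cells were left per mouse and 3672 genes could be tested. Of these genes 185 were called, 49 higher and 136 lower. Among them 5 of the 9 genes were called higher, with Clu at 2.91 and Tmem176a at 2.28. With stricter gates AA467197 was no longer called (0.72, edgeR adjusted p = 0.14).

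**Figure D2:**
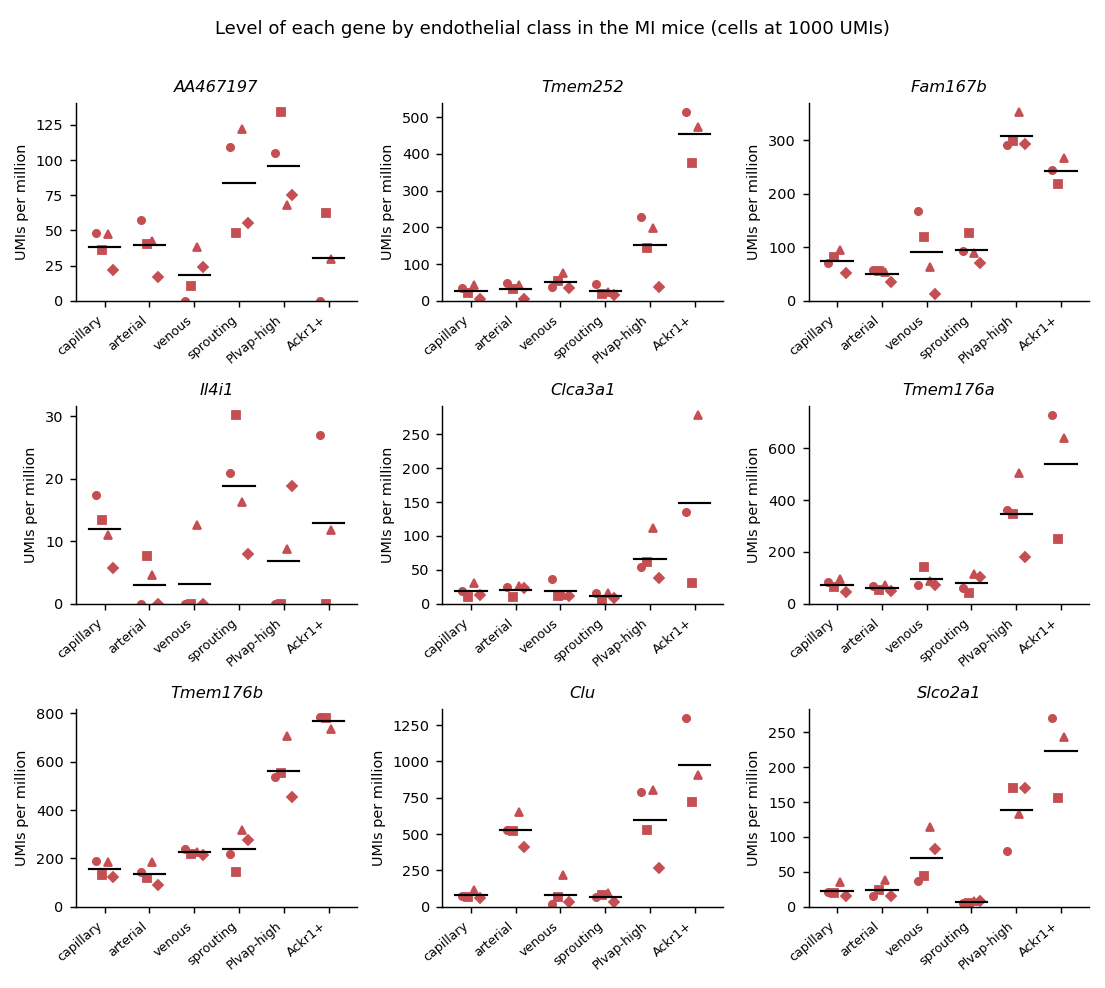
Levels of the 9 genes by endothelial class in the MI mice, in CPM from cells at 1000 UMIs. Each symbol is a mouse (a class and mouse with fewer than 20 cells is not drawn) and lines are means. Clu is high in arterial as well as Plvap-high cells, and Tmem252 is highest in Ackr1-positive cells.

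The same cells were also counted singly by any Plvap UMI. The Plvap-high cells are among those with a Plvap UMI, so these shares largely restate the comparison of classes and add no support to it. In the 4 MI mice 18.2%, 19.8%, 20.3% and 15.5% of cells with a Plvap UMI held a Fam167b UMI, against 5.65%, 6.54%, 6.91% and 3.83% of cells without one. For Slco2a1 the shares were 5.52%, 9.88%, 11.5% and 10.0% against 1.81%, 1.73%, 2.65% and 1.33%. For Tmem252 they were 12.4%, 7.91%, 14.9% and 2.27% against 3.49%, 2.13%, 3.36% and 0.584%. Of the 9 genes 8, of which 3 were the cluster markers of the study, had the higher share in Plvap-positive cells of every MI mouse, where 13.6% of 9885 genes did. Il4i1 was the exception, at 0.746%, 0.198%, 0.733% and 0.647% against 1.35%, 1.24%, 0.971% and 0.454%, lower in 3 mice and higher in mouse 256.

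**Figure D3:**
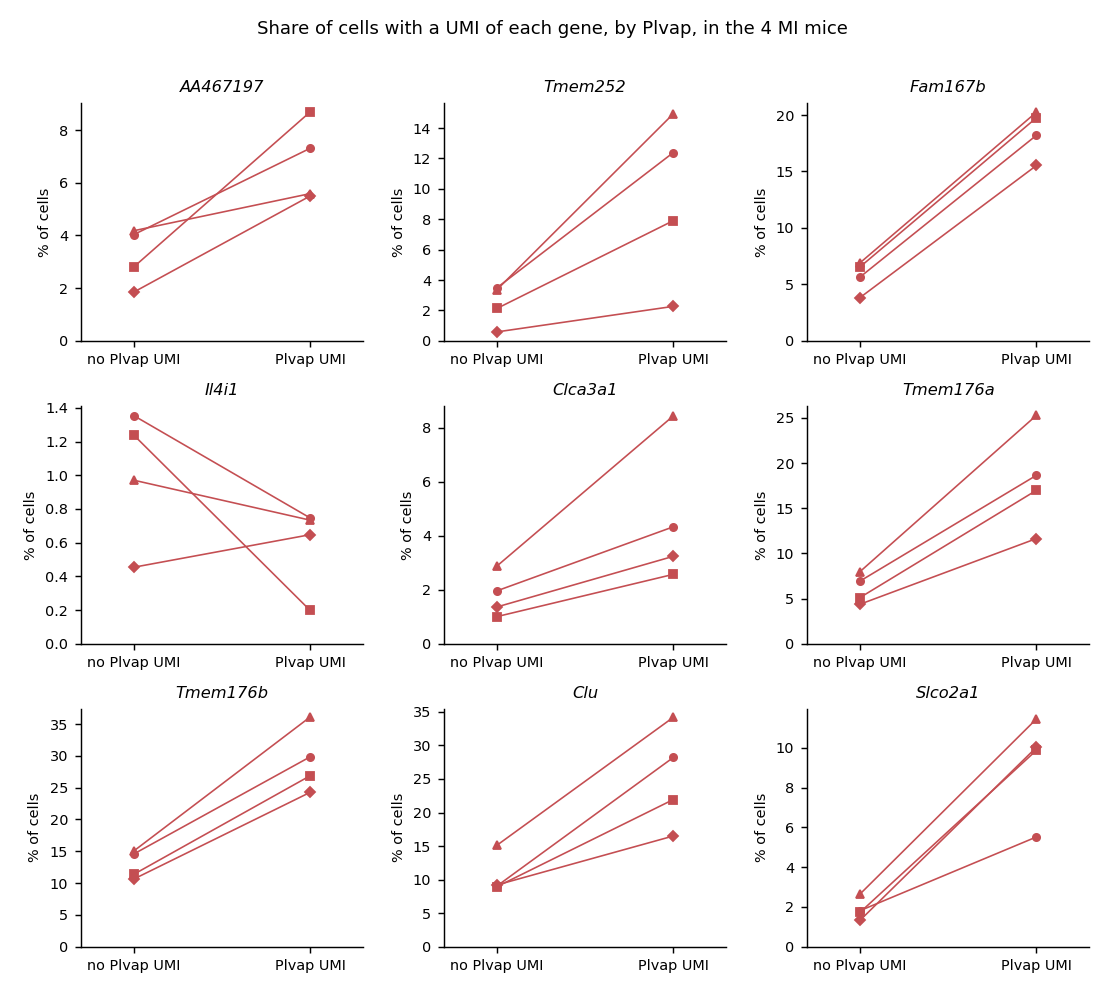
Share of endothelial cells with a UMI of each gene, in percent, among cells with and without a Plvap UMI, at 1000 UMIs per cell. Each line joins the values of 1 MI mouse. Lines rise for 8 genes in all 4 mice and for Il4i1 in 1.

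Ackr1-positive cells, which were chosen without regard to Plvap, held more Clca3a1 and Slco2a1 than Plvap-high cells without an Ackr1 UMI. This comparison rests on 3 MI mice with 37, 32 and 169 Ackr1-positive cells, since mouse 256 had 14. The class needs only 1 Ackr1 UMI. At this depth such a UMI was found in 1.57% of MI endothelial cells and in 1.69% of MI haematopoietic cells (19 of 1124). The part of free transcripts in the class was not tested, so not every cell in it need be venular. Tmem252, Tmem176a and Tmem176b, being markers of the Ackr1 cluster in the study, are no independent evidence here. Tmem252 stood at 514, 375 and 473 CPM in Ackr1-positive cells of mice 244, 250 and 255 and at 228, 144 and 199 in their Plvap-high cells, a log2 fold change of 1.25 (SE 0.19). Clca3a1 stood at 135, 31.3 and 278 against 54.3, 61.9 and 112, with a log2 fold change of 1.19 (SE 0.30, edgeR adjusted p = 0.0039), and was lower in mouse 250, where it rests on 1 UMI in Ackr1-positive cells, against 5 and 47 UMIs in mice 244 and 255. Slco2a1 stood at 270, 156 and 243 against 79.7, 170.1 and 133, with a log2 fold change of 0.87 (SE 0.27, edgeR adjusted p = 0.042), and was also lower in mouse 250, with 5 UMIs there against 10 and 41.

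Of the 8 genes tested 3 were called higher and 0 lower (2 of 5 without the cluster markers), beside 2.7% of 3705 genes called either way and 1.86% higher. AA467197 stood at 0, 62.5 and 29.6 CPM in Ackr1-positive cells against 105, 134 and 67.8 and was not called (log2 fold change -1.48, SE 0.53, edgeR adjusted p = 0.13). The Ackr1-positive values rest on 0, 2 and 5 UMIs, and 3 UMIs would have given 81.1 CPM in mouse 244. With cells thinned to 2000 UMIs, where 4 mice could be used, the difference was -2.41 and called (edgeR adjusted p = 2.1e-10). Fam167b differed by -0.37, Tmem176a by 0.41, Clu by 0.37 and Tmem176b by 0.25, none of them called, and Il4i1 had too few UMIs to be tested. The calls moved with the setting. At 2000 UMIs 6 of the 9 genes were called higher, Tmem176a, Tmem176b and Clu among them, at 600 UMIs 0, and with DESeq2, no filter on low counts or no replicate block 1, Tmem252. Over all genes tested, 145 of 6762 were called higher at 2000 UMIs and 13 of 1286 at 600 UMIs. With DESeq2 20 of 3705 genes were higher, with no filter 27 of 13119 and with no replicate block 40 of 3157. Without mouse 255, 1 gene of all tested was called and none of the 9. Without mouse 244, 1 of the 9 was called, beside 21 of 3361 genes, 19 of them higher.

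Clu was also high in arterial cells. In arterial cells of healthy mice Clu stood at 171, 289, 289 and 194 CPM against 12.3, 15.7, 23.9 and 9.67 in capillary cells. In MI mice it stood at 531, 524, 654 and 409 against 74.4, 68.1, 114 and 61.2. Arterial cells were above capillary cells in all 8 mice, with a log2 fold change of 3.03 (SE 0.09, edgeR adjusted p = 6.9e-39). Both classes held more Clu in MI mice, and the log2 difference between them was smaller there (change in the difference -1.16, SE 0.15). This value uses the contrast of MI and healthy mice by which Clu was chosen, so it is a description and nothing is read from its call. The fit called 1 of the 9 genes and 1% of 10165 genes, 0.541% with a larger and 0.462% with a smaller difference in MI mice. With no replicate block it called 0 genes (376 at an unadjusted p under 0.05) and gave Clu -1.19.

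**Figure D4:**
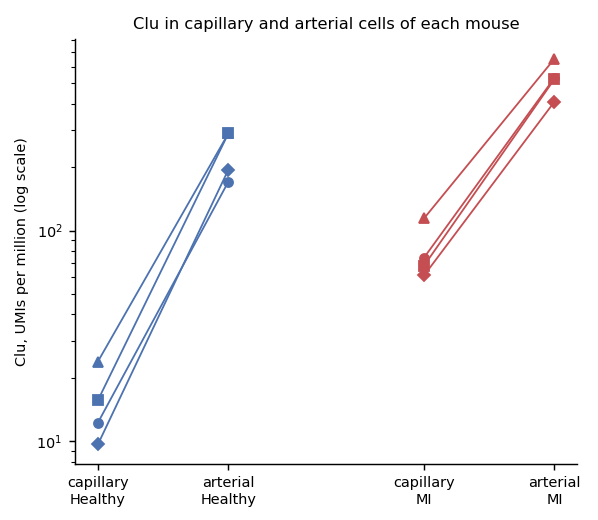
Clu in capillary and arterial cells of each mouse, in CPM on a log axis, with lines joining the classes of 1 mouse. All 8 lines rise, and the healthy lines are steeper than the MI lines.

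Fam167b and Il4i1 were lower in arterial than in capillary cells, with log2 fold changes of -0.61 (SE 0.13, edgeR adjusted p = 8.0e-05) and -1.65 (SE 0.34, edgeR adjusted p = 9.7e-05). That makes 1 gene higher and 2 lower of 9, none of them a cluster marker of the study. Of all genes 24% were called either way, 11.5% higher and 12.5% lower. The other 6 differed by -0.14 to 0.42 and were not called. Without cells that held a haematopoietic UMI, Fam167b was at -0.51 and not called (edgeR adjusted p = 0.21), and Il4i1 had too few UMIs to be tested. In venous cells Slco2a1 was the single one of the 9 called, at 37.0, 43.5, 114 and 83.3 CPM against 21.4, 20.01, 35.4 and 15.1 in capillary cells of the MI mice. In the healthy mice it stood at 62.5, 0, 0 and 22.7 CPM in venous cells against 3.90, 7.27, 5.98 and 5.27 in capillary cells. The healthy venous values rest on 4, 0, 0 and 1 UMIs, and 3 UMIs would have given 58.8 and 76.9 CPM in the libraries at 0. The venous level lay above the capillary one in 4 of 4 MI and in 2 of 4 healthy mice. Over all 8 mice its log2 fold change was 1.53 (SE 0.37, edgeR adjusted p = 0.0017), beside 6.15% of genes called either way, 1.14% higher and 5.01% lower. Venous sums were small (39 to 92 cells a mouse), and the median of all genes was -0.22 in edgeR and 0.03 in DESeq2. Of the genes called there, 120 were higher and 525 lower in edgeR, against 148 and 48 in DESeq2. Slco2a1 was not called without cells that held a haematopoietic UMI (1.94, edgeR adjusted p = 0.15). The edgeR fit of the venous difference by group, which also uses the contrast of MI and healthy mice, called 0.0667% of all genes (0.0381% higher and 0.0286% lower), and nothing is read from it for the 9.

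Cycling cells of the MI mice, with 2 or more of 8 cell-cycle genes detected, held less of 3 genes than other endothelial cells. Slco2a1 differed by -1.64 (SE 0.33, edgeR adjusted p = 1.2e-05), Clu by -1.04 (SE 0.13, edgeR adjusted p = 5.2e-14) and AA467197 by -0.79 (SE 0.25, edgeR adjusted p = 0.0090). None of these 3 is a cluster marker of the study. No gene of the 9 was called higher, beside 21.9% of all genes called either way and 10.4% lower. AA467197 was not called without mouse 244 (-0.57) or with DESeq2, and none of the 3 was called with no replicate block. Without cells that held a haematopoietic UMI Clu was still lower (-1.45, edgeR adjusted p = 0.0066), and AA467197 and Slco2a1 had too few UMIs to be tested. Cells with 2 or more interferon-response genes held less Tmem252 (-0.51), Tmem176a (-0.46), Fam167b (-0.43), Tmem176b (-0.33) and Clu (-0.31), with an edgeR adjusted p of 0.0054 for Fam167b and 0.0048 for Clu. That is 5 of 9 lower, or 2 of 6 without the cluster markers, beside 5.16% of genes called either way and 1.43% lower. None of the 5 was called without mouse 255, without cells that held a haematopoietic UMI, with DESeq2 or with no replicate block. Without cells that held a haematopoietic UMI the sign turned for Tmem252 (0.057) and Clu (0.040), while Fam167b stood at -0.40, Tmem176a at -0.38 and Tmem176b at -0.26. The mix of classes in these cells was not held constant, and its part in these differences was not tested.

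**Figure D5:**
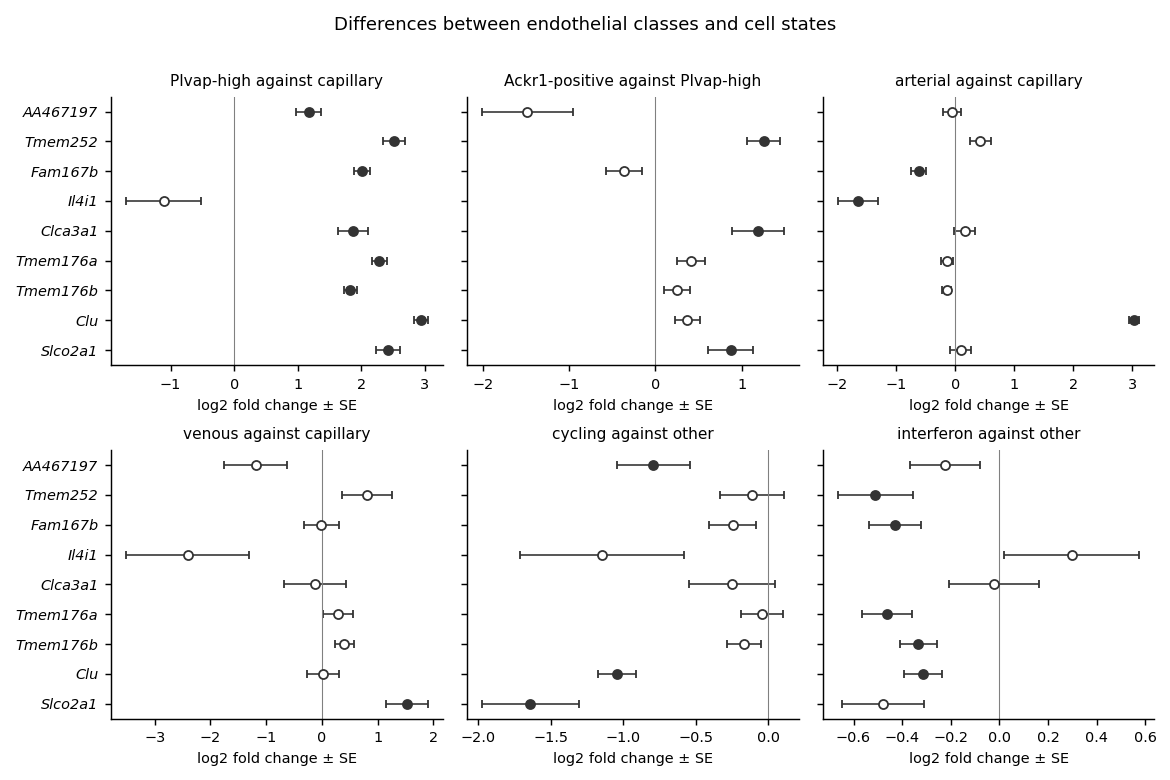
Log2 fold changes with their SE for the 9 genes in 6 comparisons of endothelial cells (edgeR, mouse as a block). Filled points have an adjusted p under 0.05. In the Plvap-high panel 8 genes lie to the right of 0, while in the arterial panel Clu stands alone far to the right, at 3.03.

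Of the 36 pairs of the 9 genes, 30 were found together in more endothelial cells of MI mice than the product of their shares gives, 21 of them in every mouse. Over all pairs of the 7473 genes found in as many of these cells as the 9 were (0.969% to 15.7%), 49.2% lay above the product and 5.48% did so in every mouse. The 9 were chosen for their level in these mice and the cells are of mixed classes, so nothing particular to the 9 is read from the counts. Tmem176a and Tmem176b shared 506 cells against 226, a ratio of 2.104 to 2.42 across mice. Within capillary cells the ratio was 1.90 to 2.69 and within Plvap-high cells 0.84 to 1.56. Tmem176a and Clu shared 352 cells against 194 (ratio 1.66 to 2.09), and Tmem252 and Clu 191 against 93.0 (ratio 1.85 to 2.43). Other pairs lay at or below the product, such as AA467197 and Slco2a1 (19 against 19.4) and Il4i1 and Clu (15 against 20.5). These counts are descriptions, since cells of 1 mouse share a library.

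Over 23 sums of class and mouse in the MI group, the patterns of level were set beside those of 6231 genes. Slco2a1 was most like Lrg1 (r = 0.95), Spint2 (0.94) and Selp (0.93), Selp being P-selectin. Tmem252 was most like Lgmn (0.94), Csf2rb2 (0.93) and Ctla2a (0.92). Tmem176a was most like Tmem176b (0.93), and Tmem176b was next most like Plvap (0.92) and Col15a1 (0.91). Fam167b was most like Pdlim1 (0.86) and Plvap (0.84), Clu like Syt15 (0.91), Clca3a1 like Aebp1 (0.89), AA467197 like Smarcd2 (0.79) and Il4i1 like Sfpq (0.76). The sums share libraries and classes, and no test was made.

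UMIs of some of these genes were also found in cells gated as other types. As a background, Plvap was found in 16.0% of MI endothelial cells, in 150 of 1124 MI haematopoietic cells (13.3%), in 8.97% of MI pericyte or smooth muscle cells, in 3.19% of MI erythroid cells and in 1 of 188 healthy haematopoietic cells. The level in MI haematopoietic cells at 1000 UMIs per cell was 0.57 times the endothelial level for Plvap and 1.002 times for Ackr1, both known from endothelium. The part of free or endothelial transcripts in the values below was not tested. In cells of the haematopoietic gate of MI mice 23.6% held a Tmem176a UMI and 37.9% a Tmem176b UMI, against 8.28% and 15.7% of endothelial cells, and in healthy mice the haematopoietic shares were 26.6% and 42.6%. Clu was found in 33 of 34 platelet-like cells, all from healthy mice (97.1%, exact 95% interval 84.7% to 99.9%), and in 28.8% of MI pericyte or smooth muscle cells. Of 48 MI fibroblasts 5 held a Clu UMI (10.4%, 3.47% to 22.7%), against 13.1% of MI endothelial cells. The level in MI fibroblasts was 3.41 times the endothelial one (35 UMIs), against 1.92 times in MI pericyte or smooth muscle cells. Clca3a1 was found in 2 of 12 healthy and 2 of 15 MI cells of the lymphatic gate, where Plvap was found in 2 and 6. AA467197 was found in 4.18% of MI haematopoietic cells, 3.73% of endothelial cells and 2 of 156 pericyte or smooth muscle cells (1.28%). Il4i1 was found in 0.979% of haematopoietic and 0.969% of endothelial cells. The haematopoietic level of MI mice was 1.22 times the endothelial one for AA467197 (61 UMIs) and 0.95 times for Il4i1 (11 UMIs), against 3.05 for Tmem176a and 2.98 for Tmem176b. It was 0.37 to 0.67 times for the other 5 genes in MI mice, near or below the MI ratios of Plvap and Ackr1. In healthy mice AA467197 was found in 4 of 188 haematopoietic cells (2.13%, exact 95% interval 0.583% to 5.36%) and 0.276% of endothelial cells (0.187% to 0.391%). Fam167b was found there in 6 of 188 haematopoietic cells (3.19%, 1.18% to 6.82%) and 0.543% of endothelial cells (0.415% to 0.697%). Its healthy haematopoietic level was 5.79 times the endothelial one (6 UMIs), against 1.26 times for Plvap (2 UMIs). The healthy ratio was 2.60 for Tmem252 (1 UMI), 0.98 for Clu, 0.83 for Slco2a1 and 0 for Clca3a1. In MI mice Slco2a1 was found in 1.78% of haematopoietic and 3.06% of endothelial cells. Median depths before thinning were 4142 UMIs in MI endothelial and 6996 in MI haematopoietic cells.

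Lists of genes with related roles were counted beside the 37.2% of all genes called between MI and healthy mice, 18.8% higher and 18.5% lower. Of 18 other genes of prostaglandin handling 10 were tested in MI against healthy mice, of which 4 were called higher and 3 lower. Ptgs1 (cyclo-oxygenase 1) went from 39.3 ± 3.11 to 83.4 ± 19.1 CPM (SD, n = 4 each, edgeR adjusted p = 0.00092) and Abcc4, a prostaglandin exporter, from 53.0 ± 2.70 to 32.6 ± 4.92 (edgeR adjusted p = 0.0010). Of 3 tested genes for other Slco carriers, the family of Slco2a1, 0 were higher and 1 lower. This was Slco2b1, which went from 29.5 ± 4.50 to 20.5 ± 1.97 CPM (edgeR adjusted p = 0.0047). Of 5 tested genes of amino acid catabolism and the aryl hydrocarbon receptor 1 was lower, Ahr itself (log2 fold change -0.86). Of 15 complex IV genes 1 was higher and 2 lower, with Cox7b at 0.25, Ndufa4 at -0.28 and Cox4i2 at -0.97.

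Of 10 tested genes of complement and extracellular chaperones 3 were higher and 2 lower. Cd55, which speeds the decay of complement convertases, went from 16.6 ± 5.25 to 29.8 ± 7.21 CPM (edgeR adjusted p = 0.021). Cr1l, a complement regulator of the cell surface, went from 226 ± 17.7 to 172 ± 6.72 CPM (edgeR adjusted p = 0.0015). Of 12 NF-kB response genes 5 were higher and 2 lower, where 37.2% of all genes were called either way. Selp was also a marker the study gave for its Ackr1 cluster of these cells. It rose from 2.32 ± 1.05 to 39.3 ± 34.8 CPM, and its MI mean without MI 255, the highest at 91.4 CPM, was 21.9. Vcam1 rose from 73.9 ± 6.96 to 138.5 ± 30.7 and Icam1 from 92.2 ± 1.70 to 131 ± 8.35 CPM, while Nfkbia and Nfkb1 fell by 0.37 and 0.47 on the log2 scale (edgeR adjusted p = 0.025 and 0.048). Of 7 tested Ms4a and Clca genes 6 were higher and 0 lower, 5 of them Ms4a genes, which are known from leukocytes. Haematopoietic markers moved the same way in these cells, and their part was not tested.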

How the data were processed

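Ventricular endothelial cells of 8 mice (4 Healthy, 4 MI) were profiled with 10X Chromium 3′ libraries. The authors deposited raw counts, whole numbers of UMIs for 16791 genes in 31028 cells, without normalization. Their notes and methods name Cell Ranger 2.1.0, mm10 (Ensembl 84), R 3.5.2 and Seurat 2.3, and exclude cells with under 400 genes or over 20% mitochondrial UMIs. Columns were assigned to mice by the mouse name in each cell name. The members, gene lists and gates were chosen with earlier results of these data known. Tmem252, Tmem176a and Tmem176b come from the study's own cluster markers.

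Levels (CPM) are UMIs over endothelial cells, scaled to a common library total. For shares and classes 1000 UMIs were drawn at random from every cell. A cell was set aside as another type when it held at least 3 genes and 1% of its UMIs of that type's list, and endothelial cells held at least 2 endothelial genes. No doublet caller was run. Counts summed per class and mouse (at least 20 cells) were tested with edgeR 4.0.16 (filterByExpr, TMM, quasi-likelihood, mouse as a block, R 4.3.3) and adjusted by Benjamini-Hochberg over all genes tested. The block pairs classes taken from the same mouse. Each SE of an edgeR log2 fold change is its absolute value over the square root of its quasi-likelihood F. It thus also rests on variance shared across genes. MI against healthy was fitted over mice without a block, and the groups share no mouse numbers. The fits were first tested on simulated data with 200 changed genes and no mouse effect, a simpler setting than the real data. For Plvap-high against capillary cells 48% of 2-fold and 85% of 4-fold changes were called, and 1.48% of calls were false. The values were 89%, 94% and 3.68% for arterial against capillary cells, and 85%, 94% and 2.72% for MI against healthy. A gene that was not called may thus still differ. DESeq2 1.42.0, other depths and gates, no filter, no block, and leaving out copied cells, cells with a haematopoietic UMI or single mice were alternatives. Haematopoietic UMIs were counted there before thinning, so deeper cells are more likely to be left out. MI against healthy over all deposited cells was added after the data were seen. One library was made per mouse, and intervals (exact Clopper-Pearson, 95%) cover counting error only.

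Genes were named as follows: the 9 members in every comparison, up to 3 highest and 3 lowest called genes of each related list with a mean of 20 CPM or more, and the 3 most similar genes to each member, of which the leading ones are printed. Similarity was Pearson's r of log2(CPM + 10).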

Additional observations from a re-analysis of the deposited data

Results flagged for a closer look

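Slco2a1 stood apart in mouse 255 among the 4 MI mice, at 72.5 CPM against 32.8 to 35.2 in the other 3, and at 5.20% of cells with a UMI at equal depth against 2.12% to 2.59%. Such a gap is seen by chance in about 1 of 20 groups of 4, and 36 groups were looked at. Mouse 255 also held the most Ackr1-positive (169) and Plvap-high (457) cells, whose part in this value was not tested.

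The arterial excess of Clu over capillary cells was smaller in MI than in healthy mice, by a log2 change of -1.16 (SE 0.15). What drew attention is that both groups were fitted together and differed, but the value uses the contrast by which Clu was chosen, so it is a description with no test. It ranged from -1.34 to -1.04 when single mice were left out, and was -1.09 without copied cells, -1.18 with DESeq2 and -1.19 with no replicate block.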

How the results depend on the processing

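The levels of 7 genes did not overlap between MI and healthy mice, and 8 genes had the higher share in Plvap-positive cells of every MI mouse, under each alternative run for them. Counts that moved, and fold changes whose sign turned, are given here, and the cause was not tested. With DESeq2, the genes called numbered 724 for Plvap-high against capillary cells, 24 for Ackr1-positive against Plvap-high cells, 1580 for arterial against capillary cells, 196 for venous against capillary cells, 46 for the arterial difference by group, 1 for the venous difference by group, 1405 for cycling against other cells and 245 for interferon-gene against other cells. The genes of interest called numbered 1 higher for Ackr1-positive against Plvap-high cells and 0 lower for interferon-gene against other cells. Over all genes, 20 of 3705 were higher in Ackr1-positive cells there and 17 of 10357 lower in interferon-gene cells. Signs turned for Fam167b (0.10) in venous against capillary cells, Clca3a1 (0.18) in venous against capillary cells, Tmem176a (0.0025) in cycling against other cells and Clca3a1 (0.032) in interferon-gene against other cells. Without a filter on low counts, the genes called numbered 50 for Ackr1-positive against Plvap-high cells. The genes of interest called numbered 1 higher for Ackr1-positive against Plvap-high cells. With no replicate block, the genes called numbered 796 for Plvap-high against capillary cells, 45 for Ackr1-positive against Plvap-high cells, 1396 for arterial against capillary cells, 223 for venous against capillary cells, 0 for the arterial difference by group, 0 for the venous difference by group and 149 for interferon-gene against other cells. The genes of interest called numbered 1 higher for Ackr1-positive against Plvap-high cells, 0 lower for the arterial difference by group, 0 lower for cycling against other cells and 0 lower for interferon-gene against other cells. For cycling against other cells 600 of 9862 genes were called lower in that fit. For interferon-gene against other cells 0 of 9812 genes were called lower. Signs turned for Fam167b (0.075) in venous against capillary cells, Tmem252 (0.032) in cycling against other cells, Tmem176a (0.041) in cycling against other cells and Clca3a1 (0.031) in interferon-gene against other cells. With cells thinned to 600 UMIs, the genes called numbered 523 for Plvap-high against capillary cells, 21 for Ackr1-positive against Plvap-high cells, 1035 for venous against capillary cells, 53 for the arterial difference by group and 0 for the venous difference by group. The genes of interest called numbered 0 higher for Ackr1-positive against Plvap-high cells. Signs turned for Clu (-0.22) in Ackr1-positive against Plvap-high cells, Clca3a1 (-0.15) in arterial against capillary cells, Tmem176a (0.066) in arterial against capillary cells, Slco2a1 (-0.13) in arterial against capillary cells, Tmem252 (-0.39) in venous against capillary cells, Clca3a1 (0.42) in venous against capillary cells, Tmem176b (-0.40) in venous against capillary cells, Clu (-0.61) in venous against capillary cells, Tmem252 (0.31) in cycling against other cells and Clca3a1 (0.40) in interferon-gene against other cells. With cells thinned to 2000 UMIs, the genes called numbered 2511 for Plvap-high against capillary cells, 231 for Ackr1-positive against Plvap-high cells and 15 for the venous difference by group. The genes of interest called numbered 1 lower for Plvap-high against capillary cells, 6 higher for Ackr1-positive against Plvap-high cells, 1 lower for Ackr1-positive against Plvap-high cells, 3 higher for arterial against capillary cells, 3 higher for venous against capillary cells, 2 lower for venous against capillary cells and 5 lower for cycling against other cells. Over all genes at that depth, 1383 of 10692 were higher in arterial cells and 1517 of 11281 lower in cycling cells. In Plvap-high cells 1202 of 10630 genes were lower. In Ackr1-positive cells 145 of 6762 were higher and 86 lower. In venous cells 355 of 9604 genes were higher and 280 lower. Signs turned for AA467197 (0.33) in arterial against capillary cells, Clca3a1 (0.18) in venous against capillary cells, Tmem252 (0.0023) in cycling against other cells and Clca3a1 (0.11) in interferon-gene against other cells. On sums of cells thinned to 1000 UMIs, the genes called numbered 2650 for MI against healthy. With stricter gates, the genes of interest called numbered 2 higher for arterial against capillary cells and 3 lower for interferon-gene against other cells. Over all genes, 1065 of 10126 were higher in arterial cells there and 119 of 10261 lower in interferon-gene cells. Signs turned for Tmem176a (0.059) in arterial against capillary cells, Tmem176b (0.16) in arterial against capillary cells and Clca3a1 (0.26) in interferon-gene against other cells. Without cells that held a haematopoietic UMI, the genes called numbered 185 for Plvap-high against capillary cells, 1491 for arterial against capillary cells, 216 for venous against capillary cells, 21 for the arterial difference by group, 0 for the venous difference by group, 495 for cycling against other cells and 167 for interferon-gene against other cells. The genes of interest called numbered 5 higher for Plvap-high against capillary cells, 0 lower for arterial against capillary cells, 0 higher for venous against capillary cells, 1 lower for cycling against other cells and 0 lower for interferon-gene against other cells. Over all genes there, 49 of 3672 were higher in Plvap-high cells, 743 of 8085 lower in arterial cells and 48 of 7344 higher in venous cells. In cycling cells 261 of 4841 were lower, and in interferon-gene cells 25 of 5227. Signs turned for Tmem176a (0.010) in arterial against capillary cells, Fam167b (0.57) in venous against capillary cells, Clu (-0.31) in venous against capillary cells, Fam167b (0.17) in cycling against other cells, Tmem176b (0.025) in cycling against other cells, Tmem252 (0.057) in interferon-gene against other cells and Clu (0.040) in interferon-gene against other cells. Without copied cells, signs turned for Fam167b (0.049) in venous against capillary cells. Those on the log2 scale are differences between classes, and none of the values whose sign turned had been called, except Tmem252 and Clu in interferon-gene cells.

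When single mice were left out, counts called ranged from 814 to 1134 for Plvap-high against capillary cells (all genes), 1 to 75 for Ackr1-positive against Plvap-high cells (all genes), 0 to 3 for Ackr1-positive against Plvap-high cells (genes of interest higher), 1 to 2 for arterial against capillary cells (genes of interest higher), 388 to 523 for venous against capillary cells (all genes), 67 to 109 for the arterial difference by group (all genes), 0 to 7 for the venous difference by group (all genes) and 0 to 5 for interferon-gene against other cells (genes of interest lower). Over all genes, 1 of 2214 to 56 of 3959 were higher in Ackr1-positive cells in those fits. In arterial cells 1044 of 10110 to 1097 of 10059 were higher. In interferon-gene cells 75 of 10146 to 149 of 10224 were lower. Log2 fold changes ranged from -0.34 to 0.23 for Fam167b in venous against capillary cells, -0.32 to 0.22 for Clca3a1 in venous against capillary cells, -0.47 to 0.22 for Clu in venous against capillary cells, -0.32 to 0.086 for Tmem252 in cycling against other cells, -0.15 to 0.089 for Tmem176a in cycling against other cells and -0.095 to 0.11 for Clca3a1 in interferon-gene against other cells. The replicate block is the mouse from which both classes came. Stricter gates could not be run for venous and Ackr1-positive cells, nor could Ackr1-positive cells be compared without cells that held a haematopoietic UMI, for want of cells. MI mice held no copied cells, so comparisons within them are not altered by leaving these out. Il4i1 held 6 UMIs in all Plvap-high cells at 1000 UMIs per cell, where it was not called, and was the gene called lower there at 2000 UMIs.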
